A study of Mus musculus with 8 samples.

Results

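The 7 genes described here are the muscle atrophy and Foxo genes: Trim63, Fbxo32, Trim54 and Trim55, which code for ubiquitin ligases and related muscle RING-finger proteins, and Foxo1, Foxo3 and Foxo4, which code for FoxO transcription factors. They were chosen by name out of 22367 protein-coding genes, with earlier results of these data known. Shares over all genes printed beside theirs are therefore a description and not a test. Every ChIP-seq interval (the stretch of genome called as one peak) within 50 kb of a gene body was counted for them. Together they held 57 of the 43759 intervals in the 4 peak lists. These were 18 of 5912 for myogenin in control (Myog_Ctl), 14 of 6642 for myogenin with bexarotene (Myog_Bex), 17 of 22051 for p300 in control (p300_Ctl) and 8 of 9154 for p300 with bexarotene (p300_Bex).

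The cells were C2C12, an established mouse myoblast line of the C3H strain, and both groups were differentiated for 24 h in medium with 2% horse serum. The control group (Ctl) received no ligand, while the other (Bex) received 50 nM bexarotene from the start of differentiation. Of 8 samples in the series, the 4 with a peak list were used, which is 1 library per factor and condition. The lists give positions without tag counts or scores, so that an interval is present or absent, the depth behind each list is not known from it, and less binding per cell cannot be told apart from fewer cells with binding.

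In wasting muscle, much of the protein breakdown runs through the ubiquitin-proteasome system, in which E3 ligases such as atrogin-1 (the product of Fbxo32) and MuRF1 (the product of Trim63) mark proteins for degradation. FoxO factors activate both genes, and Akt, downstream of insulin and IGF-1, holds FoxO factors in the cytoplasm by phosphorylation. Myogenin is a basic helix-loop-helix factor that binds the E-box and is known to activate both ligase genes after denervation, p300 is an acetyltransferase of active enhancers and promoters, and bexarotene is an agonist of the retinoid X receptor (RXR).

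At least 1 interval of any list lay within 50 kb of 6 of the 7 genes, where 63.9% of all protein-coding genes had one, and a myogenin interval lay near 5 of 7 (41.4% of all genes). By list, the genes with an interval numbered 5 for Myog_Ctl (32.3% of all genes), 4 for Myog_Bex (32.9%), 4 for p300_Ctl (53.8%) and 5 for p300_Bex (35.2%). The loci were uneven: Fbxo32 and Foxo3 held most of the intervals, Trim63 had a single one, and Foxo4 had none. Windows of longer genes take in more sequence, so the number per 100 kb of window is given beside the counts. Its median over the 7 genes was 1.36 for Myog_Ctl, 0.550 for Myog_Bex, 0.827 for p300_Ctl and 0.680 for p300_Bex, and over all protein-coding genes it was 0, 0, 0.641 and 0.

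**Figure D1:**
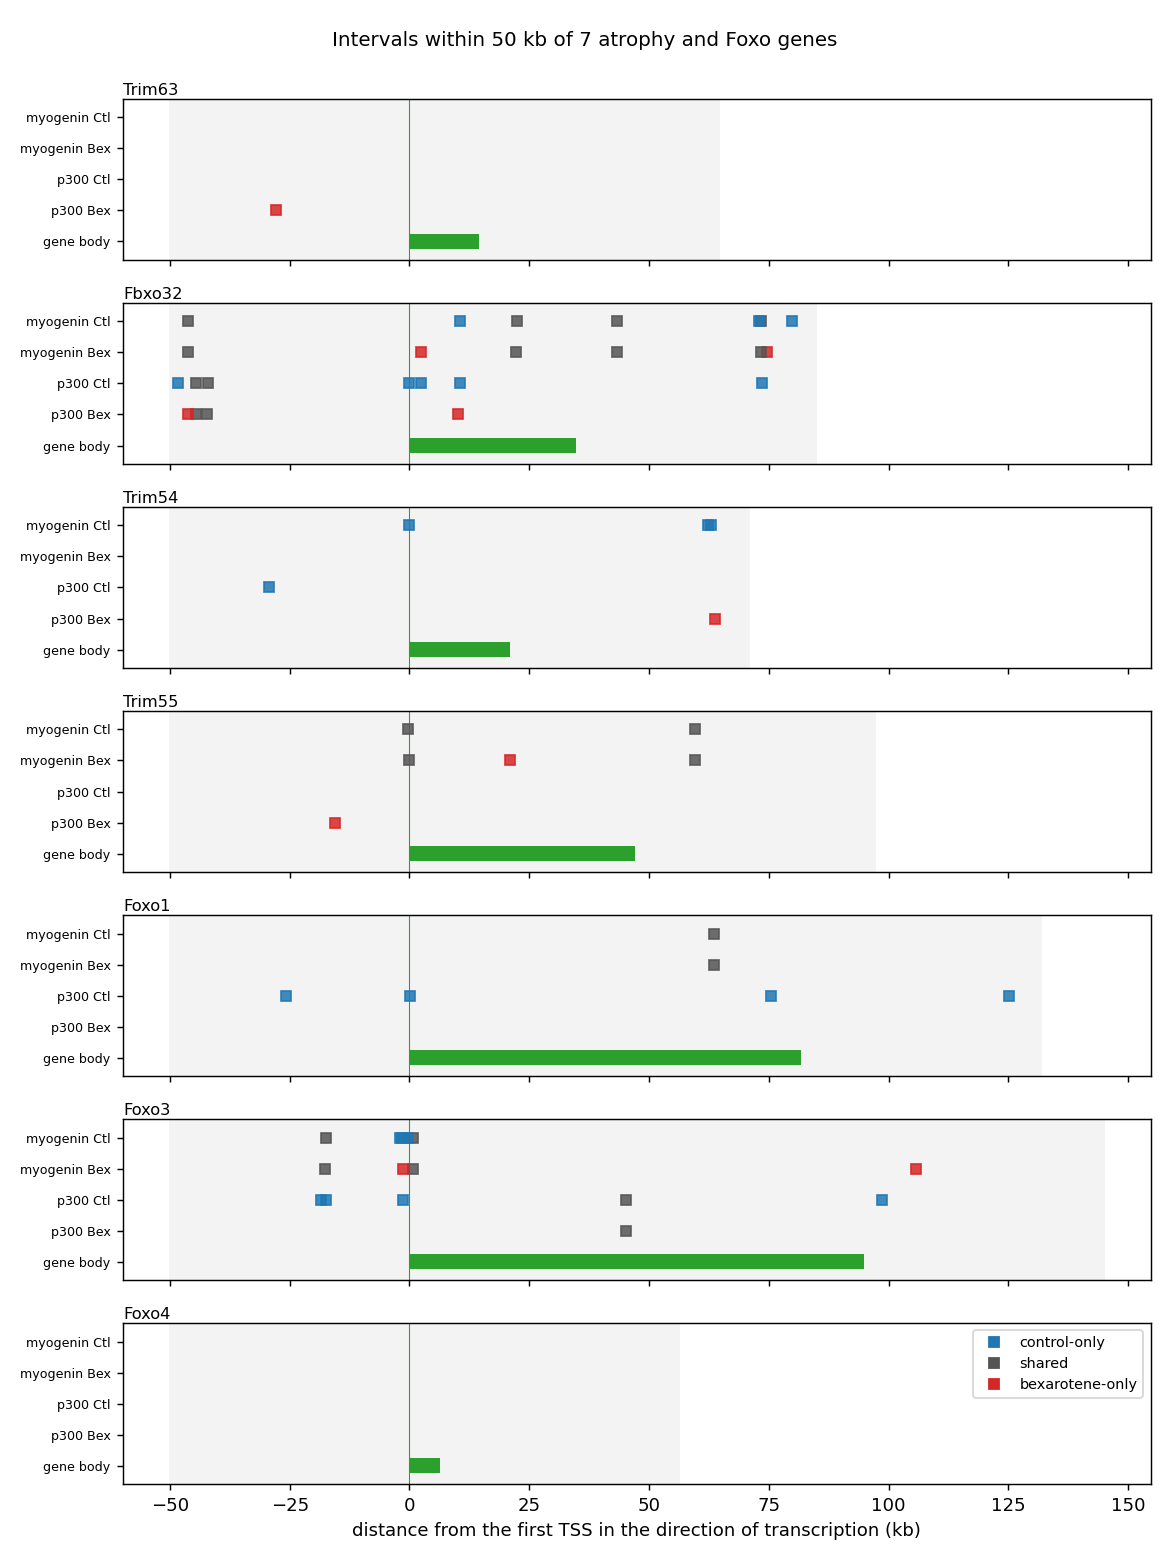
Intervals of the 4 peak lists within 50 kb of the 7 genes, 1 panel per gene. The horizontal axis is the distance in kb from the first TSS in the direction of transcription, green bars are gene bodies, pale bands are the windows searched, and each square is the center of 1 interval, blue where its region was unique to control, gray where shared and red where unique to bexarotene; Fbxo32 carries intervals of all 4 lists, Trim63 a single red p300 square and Foxo4 none.

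Where a control and a bexarotene interval of one factor overlapped, they were joined as a shared region, and each remaining interval was a region unique to control or unique to bexarotene. The 32 myogenin intervals formed 23 regions, of which 9 were unique to control, 9 shared and 5 unique to bexarotene. In percent these were 39.1%, 39.1% and 21.7%, beside 30.6%, 31.3% and 38.2% of all 9553 myogenin regions. The 25 p300 intervals formed 22 regions, of which 14 were unique to control, 3 shared and 5 unique to bexarotene. These shares were 63.6%, 13.6% and 22.7%, beside 62.1%, 30.1% and 7.77% of all 23903 p300 regions.

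Fbxo32 (ENSMUSG00000022358.5, chr15:58011634-58046433 of mm9, minus strand) codes for atrogin-1, the F-box protein that brings substrates to an SCF ligase. Its window of 134.8 kb held 7 Myog_Ctl, 6 Myog_Bex, 7 p300_Ctl and 4 p300_Bex intervals. This amounts to 5.19, 4.45, 5.19 and 2.97 intervals per 100 kb, more than in 99%, 99%, 97.0% and 98.1% of protein-coding genes. It was the gene with the most intervals in each of the 4 lists.

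The myogenin locus farthest upstream of Fbxo32 was shared. Myog_Ctl had a 274 bp interval at chr15:58092499-58092772, centered 46203 bp upstream of the TSS, and Myog_Bex had a 260 bp interval at chr15:58092518-58092777, overlapping it by 255 bp. A p300_Bex interval of 158 bp at chr15:58092540-58092697 lay wholly inside both, and p300_Ctl had none there, its nearest interval being 1344 bp from the p300_Bex interval. The sequence is shown because it carries 3 E-boxes within 100 bp and was the only site at the 7 genes where myogenin and p300 intervals overlapped in the presence of bexarotene. Here and in the sequences that follow, the plus strand of mm9 is printed in lower case from 5′ to 3′, and capitals mark the E-boxes, which are the palindrome CAGCTG and the form CACCTG with its reverse complement CAGGTG.
Fbxo32 chr15:58092586-58092685: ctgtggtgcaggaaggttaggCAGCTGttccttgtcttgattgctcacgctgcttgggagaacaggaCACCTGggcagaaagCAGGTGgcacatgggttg

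Inside Fbxo32, myogenin was called in intron 1 with bexarotene only, and at 2 sites of intron 4, of which one was shared and the other unique to control. In intron 1, 2346 bp downstream of the TSS, Myog_Bex had a 286 bp interval at chr15:58043944-58044229 that was unique to bexarotene. The nearest Myog_Ctl interval was 7887 bp away, at chr15:58035832-58036056 in intron 4, and it was itself unique to control. Each of these intronic sites is shown because it was called under one condition only, and the E-boxes number 3 in the first and 2 in the second.
Fbxo32 chr15:58043987-58044186: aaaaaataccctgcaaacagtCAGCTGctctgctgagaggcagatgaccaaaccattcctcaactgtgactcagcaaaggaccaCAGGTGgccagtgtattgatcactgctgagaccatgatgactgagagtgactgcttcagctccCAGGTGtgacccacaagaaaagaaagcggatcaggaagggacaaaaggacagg
Fbxo32 chr15:58035832-58036056: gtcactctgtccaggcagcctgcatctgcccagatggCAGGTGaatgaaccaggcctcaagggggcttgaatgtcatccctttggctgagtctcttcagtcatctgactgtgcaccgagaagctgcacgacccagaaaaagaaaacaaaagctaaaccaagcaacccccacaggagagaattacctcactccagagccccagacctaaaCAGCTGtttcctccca

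Control p300 intervals touched both of these sites. The p300_Ctl interval at chr15:58043861-58044019 overlapped the Myog_Bex interval of intron 1 by 76 bp, although the 2 libraries come from different conditions. The p300_Ctl interval at chr15:58035724-58035922 overlapped the Myog_Ctl interval of intron 4 by 91 bp, and a p300_Bex interval of 233 bp, at chr15:58036076-58036308, began 153 bp beyond the p300_Ctl interval and 19 bp beyond the myogenin interval. By the overlap rule these 2 p300 intervals are unique to their conditions, but they stand next to each other within the same intron.

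At the Fbxo32 promoter p300 was called in control only. The p300_Ctl interval chr15:58046392-58046594 covered the TSS, with its center 60 bp upstream, and the nearest p300_Bex interval was 10083 bp away. No myogenin interval of either list was centered within 1 kb of this TSS. Upstream, p300 had 2 shared regions, centered 42131 and 44543 bp from the TSS in control, and a region unique to control 48278 bp from it. In both shared regions the bexarotene interval lay inside the control interval and was shorter, at 158 against 241 bp and 198 against 440 bp.

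**Figure D2:**
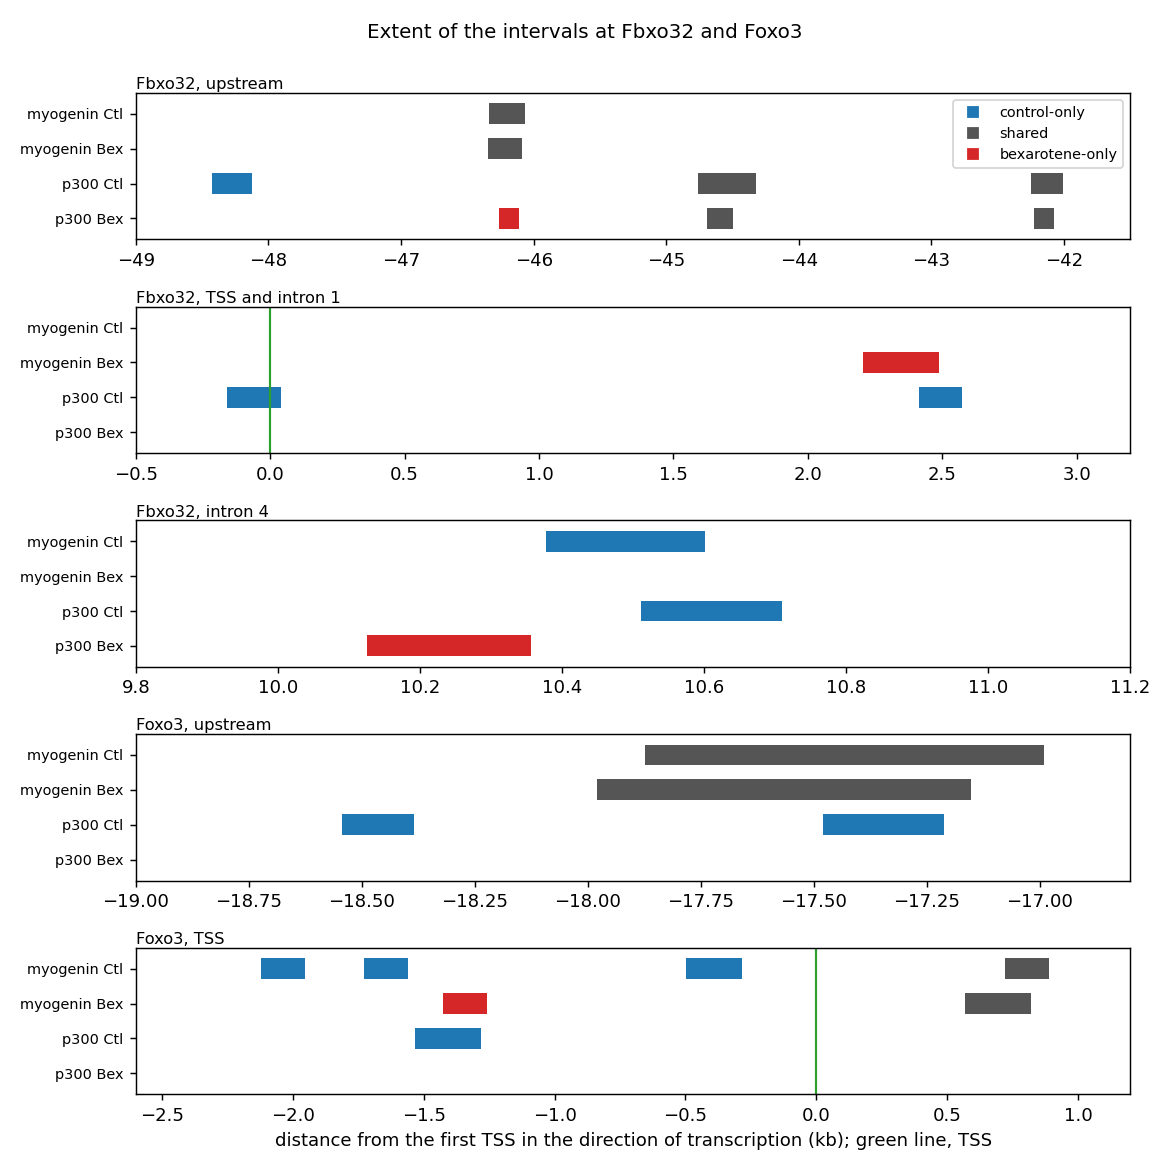
Extent of the intervals at 3 stretches of Fbxo32 and 2 of Foxo3, with the distance from the first TSS in kb along the horizontal axis, 1 row per peak list and a green line at the TSS. Bars are drawn to scale and are blue where unique to control, gray where shared and red where unique to bexarotene; the red p300 interval upstream of Fbxo32 lies under both gray myogenin intervals, and upstream of the Foxo3 TSS the red myogenin interval overlaps a blue p300 interval of control.

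The remaining Fbxo32 intervals lay downstream or in intron 4. A shared myogenin region at chr15:58023874-58024261 in intron 4 was 388 bp long, and a further shared region lay in intergenic sequence, 43354 bp downstream of the TSS in control. Near the start of the neighbouring gene Wdyhv1 there was a shared myogenin region in its first exon, a myogenin region unique to control in its first intron, a myogenin region unique to bexarotene 1182 bp upstream of it and a p300 region unique to control 208 bp upstream of it. A myogenin interval unique to control, chr15:57966468-57966639, lay in the 5′ UTR of Atad2. Of the 13 myogenin intervals counted for Fbxo32, therefore, 7 had the TSS of another gene as their nearest.

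Trim63 (ENSMUSG00000028834.7, chr4:133871035-133885544, plus strand) codes for MuRF1, a RING-finger ligase of the sarcomere. Its 114.5 kb window held no Myog_Ctl, Myog_Bex or p300_Ctl interval. The nearest were 128.7 kb, 181.9 kb and 66.4 kb from the gene body. The single p300_Bex interval, of 158 bp at chr4:133843137-133843294, lay 27819 bp upstream of the Trim63 TSS and 48 bp upstream of a TSS of Pdik1l. It was unique to bexarotene, had the smallest length of its list and contained no E-box.

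Trim54 (ENSMUSG00000062077.7, chr5:31419085-31440003, plus strand) codes for MuRF3, a microtubule-associated RING-finger protein of striated muscle. Its window of 120.9 kb held 3 Myog_Ctl intervals, 1 p300_Ctl interval and 1 p300_Bex interval. Myog_Bex had none, and its nearest interval was 68.8 kb from the gene body. All 5 intervals were therefore unique to one condition, and all had the smallest length of their list. The Myog_Ctl interval centered 153 bp upstream of the Trim54 TSS is shown because it was the promoter interval that Myog_Bex lacked, and it holds 1 E-box.
Trim54 chr5:31418846-31419017: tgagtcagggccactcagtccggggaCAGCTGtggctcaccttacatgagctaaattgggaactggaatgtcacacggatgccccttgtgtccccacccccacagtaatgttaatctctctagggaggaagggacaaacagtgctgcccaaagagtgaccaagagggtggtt
The other 2 Myog_Ctl intervals lay in intron 1 of Gtf3c2, 293 and 801 bp from the nearest of its TSSs, and the p300_Bex interval lay 278 bp upstream of another TSS of Gtf3c2. The p300_Ctl interval was in intron 7 of Slc30a3, 29329 bp upstream of Trim54.

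Trim55 (ENSMUSG00000060913.5, chr3:19544460-19591599, plus strand) codes for MuRF2, the relative of MuRF1 and MuRF3 that associates with microtubules and titin. Its 147.1 kb window held 2 Myog_Ctl, 3 Myog_Bex and 1 p300_Bex intervals and no p300_Ctl interval, the nearest of which was 191.2 kb away. Unlike at Trim54, the promoter was called in both myogenin lists: Myog_Ctl had a 260 bp interval at chr3:19544061-19544320 and Myog_Bex a 311 bp interval at chr3:19544127-19544437, with 194 bp in common. The bexarotene interval reached closer to the TSS, and the E-box in the following sequence lies only in that stretch.
Trim55 chr3:19544182-19544381: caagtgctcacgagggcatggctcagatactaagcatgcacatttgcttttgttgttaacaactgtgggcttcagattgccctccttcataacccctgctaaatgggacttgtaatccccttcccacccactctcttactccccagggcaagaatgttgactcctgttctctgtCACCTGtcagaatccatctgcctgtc
In intron 4 of Trim55, 21027 bp downstream of the TSS, Myog_Bex had an interval unique to bexarotene, chr3:19565403-19565570. It is shown because Myog_Ctl had no counterpart to it, and it carries a CAGCTG near its center. The nearest Myog_Ctl interval was 21082 bp away.
Trim55 chr3:19565437-19565536: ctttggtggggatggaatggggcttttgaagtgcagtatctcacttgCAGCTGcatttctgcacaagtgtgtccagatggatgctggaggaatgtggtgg
The third myogenin region, chr3:19603933-19604245, was shared, lay downstream of the gene and had the TSS of Crh as its nearest. The p300_Bex interval was unique to bexarotene and lay 154 bp upstream of the TSS of 1700064H15Rik, 15629 bp upstream of Trim55.

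Foxo1 (ENSMUSG00000044167.5, chr3:52072259-52154031, plus strand) codes for a FoxO factor that drives atrophy genes when insulin signaling is low. Its 181.8 kb window held 1 Myog_Ctl, 1 Myog_Bex and 4 p300_Ctl intervals. Both myogenin intervals fell on one site of intron 1, 262 bp long in control at chr3:52135696-52135957 and 216 bp long with bexarotene at chr3:52135743-52135958, with 215 bp in common. This shared site, 63568 bp downstream of the TSS in control, is shown because it holds 3 E-boxes within 100 bp.
Foxo1 chr3:52135777-52135876: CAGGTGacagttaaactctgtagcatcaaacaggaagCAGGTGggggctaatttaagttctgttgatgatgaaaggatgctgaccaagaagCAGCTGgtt
None of the 4 p300_Ctl intervals had a counterpart in p300_Bex, whose nearest interval was 87.2 kb from the gene body. They lay 25705 bp upstream of the TSS, in the 5′ UTR of exon 1 (center 157 bp downstream of the TSS), in intron 1 at 75418 bp and beyond the gene at 125132 bp. None of them overlapped the myogenin site, the nearest being 11600 bp from it.

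Foxo3 (ENSMUSG00000048756.4, chr10:41901647-41996561, minus strand) codes for the FoxO factor best known for inducing both atrogin-1 and autophagy genes in muscle. Its 194.9 kb window, the longest of the 7, held 5 Myog_Ctl, 4 Myog_Bex, 5 p300_Ctl and 1 p300_Bex intervals. Per 100 kb this was 2.57, 2.05, 2.57 and 0.513 intervals, more than in 95.1%, 94.0%, 85.5% and 67.6% of protein-coding genes. By this measure Foxo3 came after Fbxo32 in both myogenin lists and in p300_Ctl. It was only just ahead of Trim54 in Myog_Ctl (2.48 per 100 kb) and of Trim55 in Myog_Bex (2.04 per 100 kb).

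The longest intervals at the 7 genes lay upstream of Foxo3. Myog_Ctl had an 882 bp interval at chr10:42013553-42014434, centered 17433 bp upstream of the TSS, and Myog_Bex an 828 bp interval at chr10:42013713-42014540, with 722 bp in common and 5 E-boxes in each. A p300_Ctl interval of 269 bp lay inside both. No p300_Bex interval was found there, the nearest being 62331 bp away in intron 2. This site was thus covered by myogenin in both conditions and by p300 in control only. A further p300_Ctl interval unique to control, chr10:42014946-42015104, stood 405 bp beyond the Myog_Bex interval, 18464 bp upstream of the TSS.

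Around the Foxo3 TSS the myogenin calls differed in place. A shared region lay in intron 1, 792 bp downstream of the nearest Foxo3 TSS in control. Upstream of it, Myog_Ctl had 3 intervals unique to control, centered 391, 1645 and 2038 bp from the TSS, and Myog_Bex had 1 interval unique to bexarotene, at 1342 bp. The gap between the bexarotene interval and the nearest of the control intervals was 133 bp, so these calls were close neighbours. A p300_Ctl interval, chr10:41997842-41998095, overlapped the bexarotene interval by 145 bp and stood 24 bp from a control one. The control interval closest to the TSS is shown because it is the only one of the 4 with an E-box, of which it has 2.
Foxo3 chr10:41996845-41997059: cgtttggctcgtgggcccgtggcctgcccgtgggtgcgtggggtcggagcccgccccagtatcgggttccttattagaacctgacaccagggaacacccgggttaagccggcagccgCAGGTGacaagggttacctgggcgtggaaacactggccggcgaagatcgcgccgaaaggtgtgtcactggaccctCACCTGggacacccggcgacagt

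The only p300 region of Foxo3 called in both conditions was in intron 2, at chr10:41951284-41951449, where the control and bexarotene intervals of 159 and 158 bp had 151 bp in common. Beyond the end of the gene, p300_Ctl had an interval unique to control and Myog_Bex an interval unique to bexarotene, 6849 bp apart. Across Foxo1 and Foxo3, 8 of the 9 p300_Ctl intervals had no bexarotene counterpart. Over the whole lists, 67.3% of p300_Ctl intervals were unique to control, and p300_Bex had fewer intervals than p300_Ctl, 9154 against 22051. The part of list size in these counts was not tested.

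Foxo4 (ENSMUSG00000042903.7, chrX:98449867-98456212, plus strand) codes for another FoxO factor and is the shortest of the 7 genes. Its window of 106.3 kb held no interval of any list. The nearest myogenin intervals were 1777.2 kb from the gene body in both lists, and the nearest p300 intervals were 127.3 kb away in control and 538.1 kb away with bexarotene. Intervals were few on the whole of chromosome X, which held 0.880%, 1.02%, 1.18% and 1.04% of the Myog_Ctl, Myog_Bex, p300_Ctl and p300_Bex lists. Of 932 protein-coding genes of that chromosome, 20.5% had an interval of any list within 50 kb, where 63.9% of all genes did.

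**Figure D3:**
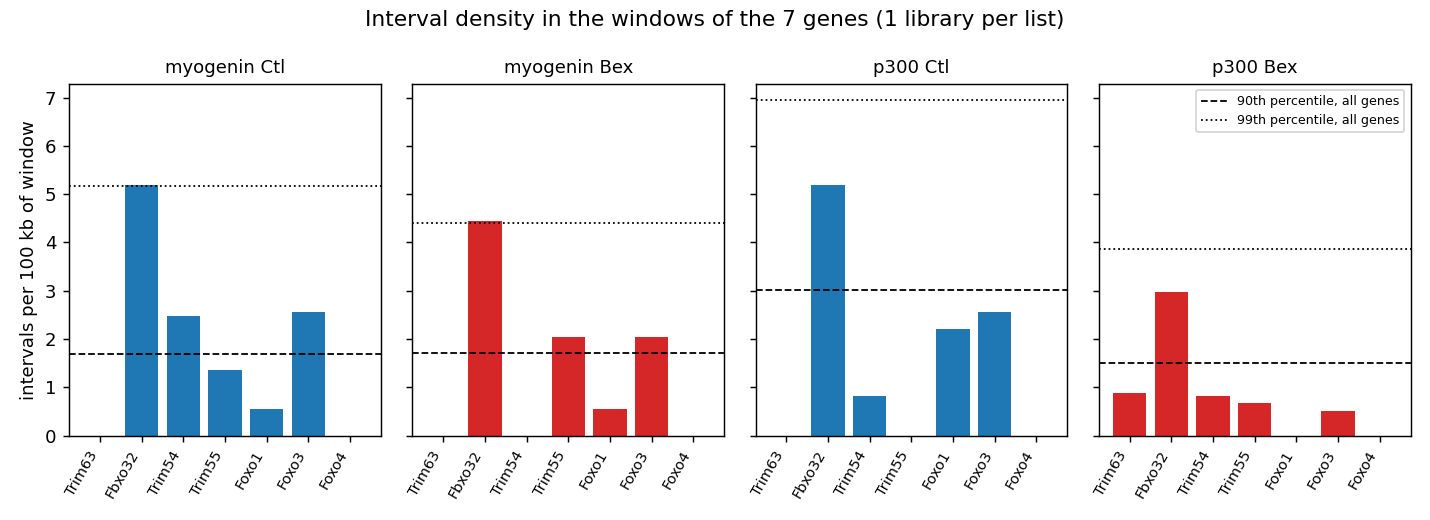
Number of intervals per 100 kb of window for each of the 7 genes (bars), 1 panel per peak list and 1 library per list, with the dashed and dotted lines at the 90th and 99th percentiles of all 22367 protein-coding genes. Fbxo32 reaches 5.19 in Myog_Ctl and 4.45 in Myog_Bex, just above the dotted line in both, and 2.97 in p300_Bex, between the lines.

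Each class of region was then counted by gene. Myogenin regions unique to control were found at 3 of the 7 genes (23% of all protein-coding genes), shared ones at 4 (17.5%) and ones unique to bexarotene at 3, namely Fbxo32, Trim55 and Foxo3 (25.1%). For p300, regions unique to control were found at 4 genes (47.5%), shared ones at 2 (27.7%) and ones unique to bexarotene at 4 (14.4%). Among the 23 myogenin regions, 21.7% were unique to bexarotene (95% Wilson interval 9.66 to 41.9%), beside 38.2% of all 9553 myogenin regions. Among the 22 p300 regions the share was 22.7% (10.1 to 43.4%), beside 7.77% of all 23903. That count of 5 in 22 fell to 1 in 11 without intervals of the smallest length and to 1 in 9 within 10 kb. These Wilson ranges and those below treat intervals and regions as independent of each other. Several of them lie side by side at 1 locus, and Fbxo32 alone held 7 of the 18 Myog_Ctl intervals, so the ranges may be too narrow. They also leave out the variation between cultures.

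The 5 p300 regions unique to bexarotene did not lie at the promoters of the 7 genes. Those of Trim63, Trim54 and Trim55 were each centered within 1 kb of the TSS of a neighbour, Pdik1l, Gtf3c2 and 1700064H15Rik, and those of Fbxo32 were in intron 4 and far upstream. Of the 5, 4 had the smallest length of the list, 158 bp, as did 80.5% of all p300_Bex intervals unique to bexarotene. Of the 5 myogenin regions unique to bexarotene, 3 lay in or close to a member, in intron 1 of Fbxo32, intron 4 of Trim55 and 1342 bp upstream of Foxo3. Here too 4 of the 5 had the smallest length of the list, 168 bp, as did 69.7% of all Myog_Bex intervals unique to bexarotene, the one in intron 1 of Fbxo32 being longer.

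An interval centered within 1 kb of the gene's own TSS was found at 3 of the 7 genes for Myog_Ctl, namely Trim54, Trim55 and Foxo3 (6.05% of all protein-coding genes). For Myog_Bex it was found at Trim55 and Foxo3 (3.72%), for p300_Ctl at Fbxo32 and Foxo1 (10.6%), and for p300_Bex at 0 of 7 (5.23%). The shares near a TSS that follow set intervals chosen near gene bodies beside whole lists not so chosen, and are not like for like. Counting the TSS of any protein-coding gene, 9 of 18 Myog_Ctl intervals, or 50% (29.0 to 71.0%), were within 1 kb of one, beside 24.2% of the whole list. Of these 9, 5 lay at the TSS of a neighbour, Atad2, Wdyhv1 or Gtf3c2, and without intervals of the smallest length the share was 25%. For Myog_Bex it was 3 of 14, or 21.4% (7.57 to 47.6%), beside 12.5%. For p300_Ctl it was 3 of 17, beside 11%, and for p300_Bex 3 of 8, or 37.5% (13.7 to 69.4%), beside 12.4%, a share that was 0% within 10 kb and without intervals of the smallest length. Of the 9 myogenin intervals unique to control, 6 were within 1 kb of a TSS, against 0 of the 5 unique to bexarotene, where the whole lists had 39.8% and 15.4%. That 0 depends on the cut, as intervals unique to bexarotene lay 1182 bp from the Wdyhv1 TSS and 1342 bp from the Foxo3 TSS. Within 2 kb of a TSS the Myog_Bex share was 35.7%.

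Both forms of the E-box, the palindrome CAGCTG and the form CACCTG, were looked for on either strand, no farther than 50 bp from the interval center. Of the Myog_Ctl intervals, 6 of 18 at the 7 genes, or 33.3% (16.3 to 56.3%), held one, beside 47.7% of the list. For Myog_Bex it was 6 of 14, or 42.9% (21.4 to 67.4%), beside 60.3%, and for p300 it was 3 of 17 in control, beside 19.6%, and 2 of 8 with bexarotene, beside 25.2%. By class, an E-box was present in 1 of the 9 intervals unique to control, in 5 of 9 shared intervals of Myog_Ctl and in 2 of 5 unique to bexarotene. The whole lists had 27.8%, 67.0% and 52.0% in these classes. Counted over the whole interval, an E-box was in 3 of 9, 7 of 9 and 2 of 5, beside 42.2%, 87.6% and 67.3%. Some E-boxes shown above, such as that of Trim54, lie more than 50 bp from the center and are left out of the counts within 50 bp. For both myogenin lists the share of the whole list lay within the interval for the 7 genes.

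In control 2 of 18 myogenin intervals overlapped a p300 interval, in Fbxo32 intron 4 and upstream of Foxo3, which was 11.1% (3.10 to 32.8%) beside 33% of the list. With bexarotene 1 of 14 did, far upstream of Fbxo32, which was 7.14% (1.27 to 31.5%) beside 25.6%. The Myog_Ctl share was 27.8% with p300 intervals up to 500 bp away counted and 25% without intervals of the smallest length. With a reciprocal overlap of 50% it was 0%. The Myog_Bex share was 0% without intervals of the smallest length, 0% within 10 kb of the genes and 15% within 100 kb. Of the p300 intervals, 2 of 17 in control and 1 of 8 with bexarotene overlapped myogenin, beside 8.79% and 18.5%. Across conditions there were 4 further overlaps: Myog_Bex with p300_Ctl in Fbxo32 intron 1, close upstream of Foxo3 and at the far upstream Foxo3 site, and Myog_Ctl with p300_Bex upstream of Fbxo32. Of the whole lists, 36.1% of Myog_Bex intervals overlapped p300_Ctl and 23.7% of Myog_Ctl intervals overlapped p300_Bex.

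**Figure D4:**
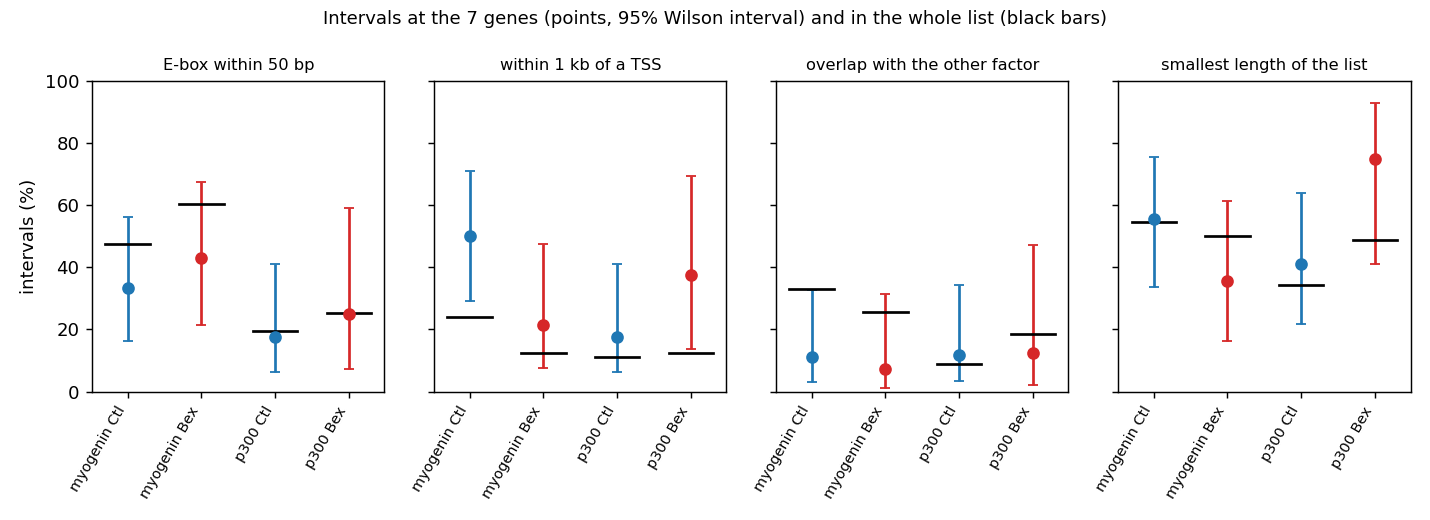
Share of the intervals at the 7 genes (points, with 95% Wilson intervals) and of the whole list (black bars), in percent, that had an E-box within 50 bp of the center, were centered within 1 kb of a TSS, overlapped the other factor in the same condition, or had the smallest length of the list. There are 18, 14, 17 and 8 intervals behind the points from left to right. The Myog_Ctl share near a TSS is 50% and its black bar is at 24.2%, but only the points are limited to intervals near gene bodies. The myogenin shares that overlap p300 lie below their black bars.

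On either strand and up to 100 bp from the center, further consensus sequences were searched. The forkhead sequence GTAAACA, which FoxO factors can bind, was in 0 of the 57 intervals, where it was in 1.95%, 2.27%, 2.75% and 2.61% of the Myog_Ctl, Myog_Bex, p300_Ctl and p300_Bex lists. The Mef2 sequence, CTA and TAG with 4 bases between, was likewise in 0, beside 2.94%, 3.51%, 2.65% and 2.71% in the same order, and so was the RXR direct repeat, AGGTCA followed by 1 base and AGGTCA again, which the lists held in 1 to 3 intervals each. The AP-1 sequence TGACTCA was in 3 of 18 Myog_Ctl intervals and 1 of 14 Myog_Bex intervals, beside 10.4% and 12.6%, and in 6 of 17 p300_Ctl intervals and 1 of 8 p300_Bex intervals, beside 27.8% and 27.1%. The Runx sequence TGTGGT was in 7 of 14 Myog_Bex intervals, or 50% (26.8 to 73.2%), beside 29.6%, and in 4 of 18 Myog_Ctl intervals, beside 25.6%. In p300 intervals it was found in 2 of 17 in control and 3 of 8 with bexarotene, beside 31.1% and 32.7%. The Tead sequence GGAATG was in 4 of 18, 4 of 14, 3 of 17 and 2 of 8 intervals, beside 16.7%, 19.1%, 18.7% and 18.9%. The GC content of the 200 bp around the centers had a median of 52.5% in Myog_Ctl (34 to 70%) and 49.8% in Myog_Bex (43 to 68%), and of 50% in p300_Ctl (30 to 75.5%) and 49.5% in p300_Bex (31.5 to 79.5%).

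Genes that work with the 7 were taken as a list of 57: 16 of ubiquitin ligases and the proteasome, 15 of autophagy and the lysosome, 12 listed as upstream regulators, among them the FoxO gene Foxo6, and 14 FoxO targets. This list too was chosen with earlier results of these data known. A Myog_Ctl interval lay near 30 of them (32.3% of all protein-coding genes), a Myog_Bex interval near 24 (32.9%), a p300_Ctl interval near 40 (53.8%) and a p300_Bex interval near 31 (35.2%). Without intervals of the smallest length the Myog_Ctl count was 15 and the p300_Bex count 20, and within 10 kb the p300_Bex count was 20. The median number per 100 kb was 0.459 for Myog_Ctl and 0 for Myog_Bex, and 0 for both over all genes. By group, 3 of 15 genes of autophagy and the lysosome had a Myog_Ctl interval and 7 a Myog_Bex interval. For ubiquitin ligases and the proteasome the counts were 10 and 6 of 16, for upstream regulators 8 and 5 of 12. For FoxO targets they were 9 and 6 of 14. The groups are small, each list is 1 library, and differences between groups were not tested.

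Within 1 kb of the gene's own TSS, a Myog_Ctl interval was centered at 12 of the 57 genes (6.05% of all protein-coding genes). For Myog_Bex it was 10 of the 57 (3.72%). A myogenin region unique to bexarotene at the gene's own TSS was found at 5 of the 57 genes, where 2.68% of all protein-coding genes had one. They were Tfeb, the lysosomal master regulator, Ddit4, an inhibitor of mTORC1 signaling, Ubb, a polyubiquitin gene, Ywhaz, a 14-3-3 protein of the kind that retains FoxO, and Fbxo31, an F-box gene. The region at Ddit4 was 296 bp long with 4 E-boxes and that at Tfeb 235 bp long with 2 E-boxes. The other 3 were 168 bp long, the smallest length of the list, and held 0 E-boxes. Not all 5 promoters lacked myogenin calls in control. Within 1 kb of the gene's own TSS, Myog_Ctl had 3 intervals at Ywhaz, 2 at Ddit4 and 1 at Ubb, and 0 at Tfeb and Fbxo31.

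Among the 57 related genes, myogenin intervals were densest at Foxo6, another FoxO gene, with 7.48 per 100 kb, both lists summed. They came from 5 Myog_Ctl and 4 Myog_Bex intervals. Akt2, the Akt kinase of insulin-responsive tissues, followed with 7.37, from 6 Myog_Ctl and 5 Myog_Bex intervals. Ddit4 came next with 6.86, from 2 and 5 intervals, and then Map1lc3a, an LC3 gene of autophagosomes, with 5.90, from 3 in each list. Akt1 had 5.78 and Psmd11, a proteasome subunit, 5.53, and the next 4 genes, Ywhaz, Txnip, Gadd45a and Ctsl, had 4.85 to 3.74. This order is that of the sum and not of each list. In Myog_Bex alone, Ddit4 had 5 intervals in a window of 102.1 kb and Foxo6 had 4 in 120.3 kb.

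As a check of the labelled cells, 15 of 20 genes of skeletal muscle had an interval within 50 kb in Myog_Ctl, in Myog_Bex and in p300_Ctl, and 12 in p300_Bex. Of 20 genes of other cell types, 3, 4, 9 and 6 had one, beside 32.3%, 32.9%, 53.8% and 35.2% of all protein-coding genes. The E-box and forkhead counts, the overlaps and the classes all rest on intervals as the authors called them, and 10 of the 18 Myog_Ctl, 5 of the 14 Myog_Bex, 7 of the 17 p300_Ctl and 6 of the 8 p300_Bex intervals at the 7 genes had the smallest length in their list (54.8%, 50%, 34.3% and 48.9% of all intervals). As each list comes from a single library, conditions were not tested against each other, and none of the differences has a replicate check.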

How the data were processed

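The authors aligned the p300 reads with Bowtie and the myogenin reads with BWA-MEM to mm9, used Picard to drop duplicates and called peaks with HOMER (factor style). The deposited peak lists used here give the position of each peak and no signal, so that the peak threshold of the authors could not be changed. Starts are counted from 0 in the lists and printed counted from 1.

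The members and gene lists were chosen with earlier results of these data known. Intervals that overlapped a gene body of the GENCODE annotation (vM1 on NCBIM37, which is mm9), extended by 50 kb, were counted in Python 3.11.15 with numpy 2.4.6, and figures were drawn with matplotlib 3.10.9. Overlaps needed 1 bp. The 46035 TSS records of protein-coding transcripts served for distances, which ran from the interval center to the closest one, or, for a member, to the closest of its own. Shares carry 95% Wilson intervals. Overlaps, classes, the nearest TSS, E-box and AP-1 counts and Wilson intervals were checked on simulated data, with 8 of 8 steps recovered. The other steps were not checked in this way.

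All 7 members are named with their intervals. Of the related genes, those with a myogenin region unique to bexarotene within 1 kb of their own TSS are named and, as these were fewer than 6, the 10 with most myogenin intervals per 100 kb. All 57 were found in the annotation, Tfeb under its older symbol. The alternatives changed the distance, the assignment, the overlap rules, the TSS catalog, the E-box and the smallest length kept. The sequence of 1 interval is not reported here. The input and H3K27me3 samples were not used here, and no test was made, as each list is 1 library.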

Additional observations from a re-analysis of the deposited data

How the results depend on the processing

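Of 96 recomputed values, 60 stayed within 1.5 times the count, or within the Wilson interval of the share, and 36 moved. Counting intervals within 10 kb of the genes left 10 Myog_Ctl, 8 Myog_Bex, 8 p300_Ctl and 2 p300_Bex intervals. Regions then numbered 5 unique to control, 5 shared and 3 unique to bexarotene for myogenin, and 7, 1 and 1 for p300. At 10 kb the p300_Bex share near a TSS and the Myog_Bex share with p300 were 0%, and 20 related genes had a p300_Bex interval. At 100 kb there were 29 p300_Ctl and 14 p300_Bex intervals, 10 myogenin regions unique to bexarotene and 9 shared p300 regions. Assigning intervals by the nearest TSS gave 11 Myog_Ctl and 5 p300_Bex intervals.

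Without intervals of the smallest length, 8 Myog_Ctl, 9 Myog_Bex, 10 p300_Ctl and 2 p300_Bex intervals remained. Regions numbered 2 unique to control and 3 unique to bexarotene for myogenin, and 9 unique to control, 1 shared and 1 unique to bexarotene for p300. Of those 3, 1 was among the 5 above, and the others were shared regions, downstream of Fbxo32 and in Foxo3 intron 1, whose control interval had the smallest length and was left out. The Myog_Ctl share near a TSS was 25% and the p300_Bex share 0%, the Myog_Bex share with p300 was 0%, and related genes with an interval numbered 15 for Myog_Ctl and 20 for p300_Bex. With any CANNTG as E-box, the shares were 66.7% for Myog_Ctl and 71.4% for Myog_Bex. A reciprocal overlap of 50% with p300 left 0% of Myog_Ctl. The cause was not tested beyond what fewer or more intervals imply. No paired analysis was possible because each condition has 1 library.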
